A study of Homo sapiens with 4 samples.

Results

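The ribosomal RNA (rRNA) genes on the short arm of chromosome 21 carried p53 peaks in both genotypes of a colorectal cancer cell line. The peaks described are all those of both deposited peak lists that lie on chromosome 21 between 8 and 9 Mb (build hg38), and they were placed on the annotated 45S rRNA genes there. The R273H list had 14 such peaks of 2008 and the wildtype list 16 of 2059, so 30 of 4067 in all. The region was selected on the score, width and overlap of its peaks, which were known from earlier results. These values are therefore given as a description, with no test. An annotated 45S gene was touched by 8 of the 14 R273H peaks and 9 of the 16 wildtype peaks. The others lay on an rRNA pseudogene unit, beside the units, on a separate microRNA locus or on no annotated gene.

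Both lists come from chromatin immunoprecipitation and sequencing (ChIP-seq) with the p53 antibody DO1. The cells were HCT116, a colon carcinoma line, grown as spheroids in medium with 20 ng/ml of epidermal growth factor and 20 ng/ml of basic fibroblast growth factor. One genotype was labelled p53-R273H, in which p53 carries histidine in place of an arginine that contacts DNA, and the other was labelled wildtype control (ctrl-19-7). Both came from passages 13 to 18. How the R273H change was made, and whether a line is a single clone, is not stated in the labels. Each genotype had 1 ChIP and 1 input library, so no difference between genotypes has a replicate check, and read depth is unknown from the lists. The score is the authors' own value per peak, given separately for each list. It ranks peaks within a list and is not compared between lists. In wildtype 11 of the 16 peaks tied at 3100, so the score does not order most of them. The lists were tied to genotypes by their names, because the descriptions name the R273H list for both ChIP samples and the wildtype list for both inputs. Every direction below rests on the list names. Peak numbering shows that 192 R273H numbers (8.73%) and 227 wildtype numbers (9.93%) were not analysed here, so ranks and missing partners hold for the listed peaks. The input libraries were not analysed here, so whether these loci are also enriched in input was not tested. In what follows, values given for R273H or wildtype are those of the list of that genotype.

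RNA polymerase I transcribes each 45S gene in the nucleolus as 1 precursor, which is cut into the 18S, 5.8S and 28S rRNAs of the ribosome. External spacers flank the rRNAs in the precursor and internal spacers separate them. The genome holds many near-identical copies of the unit in arrays on the short arms of the acrocentric chromosomes. In other work p53 is known to repress RNA polymerase I transcription, and free ribosomal proteins RPL5 and RPL11 stabilise p53 by binding its ubiquitin ligase MDM2. Because the copies are near-identical, reads of 1 copy can align to another. The handling of reads with several matches was not given in the sources used here, and the copy that a peak stands on is uncertain throughout.

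The likeness of the units themselves was not measured here. Some microRNA genes annotated in, beside or outside them could be compared, none of them at RNA45SN2 or RNA45SN3. The RefSeq (GRCh38.p14) sequences used here included hairpins for 4 of the 8 microRNA genes of the region and mature sequences for 5. The hairpins are shown because they let separate copies be compared base by base, 5′ to 3′, with the mature microRNA in capitals.
MIR6724-2 hairpin: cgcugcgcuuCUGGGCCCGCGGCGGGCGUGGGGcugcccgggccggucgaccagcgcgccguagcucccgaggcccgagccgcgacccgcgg
MIR6724-4 hairpin: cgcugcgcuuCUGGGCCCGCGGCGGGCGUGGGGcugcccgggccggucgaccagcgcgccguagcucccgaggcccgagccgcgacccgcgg
MIR10396A hairpin: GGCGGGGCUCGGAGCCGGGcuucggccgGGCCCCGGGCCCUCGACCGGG
MIR10396B hairpin: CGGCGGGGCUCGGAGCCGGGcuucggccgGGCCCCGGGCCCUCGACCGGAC
The MIR6724-2 hairpin (8249505 to 8249596) lies before the pseudogene unit and the MIR6724-4 hairpin (8432530 to 8432621) before RNA45SN1, all on the plus strand, and they were identical over all 92 bases. MIR10396B (8436324 to 8436374) lies in the 5′ external spacer of RNA45SN1 and MIR10396A (8987617 to 8987665) outside the units, and they shared a run of 48 bases. The mature sequences follow with the seed, bases 2 to 8, in capitals.
hsa-miR-6724-5p: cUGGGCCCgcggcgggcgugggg
hsa-miR-3648: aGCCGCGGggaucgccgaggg
hsa-miR-10396a-5p: gGCGGGGCucggagccggg
hsa-miR-10396b-5p: cGGCGGGGcucggagccggg
hsa-miR-10396a-3p: gGCCCCGGgcccucgaccggg
hsa-miR-10396b-3p: gGCCCCGGgcccucgaccggac
The 3p arms of miR-10396a and miR-10396b shared their seed. Their 5p arms shared 19 bases, but miR-10396b-5p starts 1 base earlier and so had another seed. All 8 microRNA genes of the region lay wholly under a peak of each list. Over all annotated genes, 1.21% had an R273H peak inside and 1.84% a wildtype peak. The count of 8 is a description, since the region was chosen on its peaks and some of these genes share a peak.

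The transcribed units were covered almost from end to end in the wildtype list, and likewise in the R273H list except in RNA45SN2. The annotation places 3 such genes on chromosome 21, RNA45SN2 (8205988 to 8219302), RNA45SN3 (8389035 to 8402343) and RNA45SN1 (8433222 to 8446572). RNA45SN1 had 99.2% of its 13351 bases under R273H peaks and 99.2% under wildtype peaks. RNA45SN3 had 93.3% of its 13309 bases under R273H peaks and 93.5% under wildtype peaks. RNA45SN2 had 56.5% of its 13315 bases under R273H peaks and 99.1% under wildtype peaks. Both lists thus covered RNA45SN1 and RNA45SN3 to nearly the same base, and RNA45SN2 stood apart. Over the 3 genes together, 83.0% of 39975 bases lay under R273H peaks and 97.3% under wildtype peaks.

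**Figure D1:**
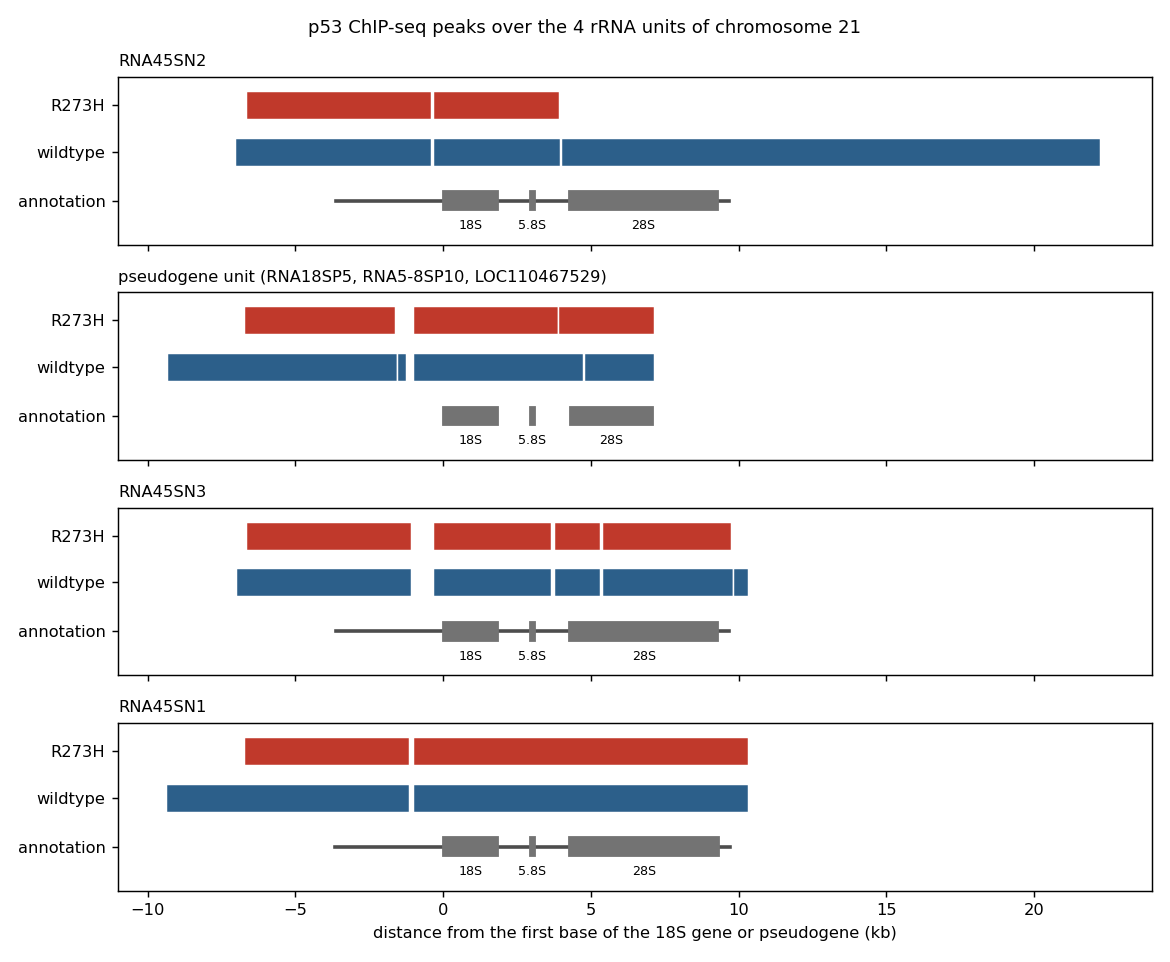
Peaks of the R273H list (red) and the wildtype list (blue) over the 4 rRNA units of chromosome 21, with the annotated 45S gene as a line and the mature rRNA genes or pseudogenes as grey boxes. The x axis is the distance in kb from the first base of the 18S gene or pseudogene, white lines are borders between peaks, and R273H peaks of RNA45SN2 end before the 28S gene, 3933 bp after the 18S start.

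The 18S, 5.8S and first internal spacer parts were under peaks in full in both lists. RNA18SN1 (8436876 to 8438744), RNA18SN2 (8209631 to 8211499) and RNA18SN3 (8392666 to 8394534) encode the RNA of the small ribosomal subunit, and each had all 1869 bases under 1 R273H peak and under 1 wildtype peak. The 5.8S genes RNA5-8SN1, RNA5-8SN2 and RNA5-8SN3 encode a short RNA of the large subunit, and each had all 157 bases under a peak of either list. The first internal spacer, of 1071 to 1077 bases, was covered in full in the 3 genes by both lists. Of the 5′ external spacer, 98.5% in RNA45SN2, 79.5% in RNA45SN3 and 97.1% in RNA45SN1 lay under R273H peaks, and 98.5%, 79.6% and 97.1% under wildtype peaks. The lower share in RNA45SN3 came from a break of 745 bp in R273H and of 740 bp in wildtype.

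Within the 45S genes, the stretch under wildtype peaks alone lay almost wholly at the 3′ part of RNA45SN2, and most of it in the 28S gene. RNA28SN2 (8213888 to 8218941), a gene for the main RNA of the large subunit, had 0 of 5054 bases under R273H peaks and all 5054 under a wildtype peak. The last R273H peak of that unit (8209281 to 8213564, 4284 bp, score 673.9) ended in the second internal spacer, of which it covered 72.2%, against 95.0% covered in the wildtype list. Its wildtype partner had the same first base and ended 3 bp later (4287 bp, score 3100). A further wildtype peak began after a break of 58 bp, at 8213626, and ran to 8231850, which is 12548 bp past the end of RNA45SN2. At 18225 bp it was the widest of the 2059 wildtype peaks listed, and no listed R273H peak overlapped it. The 3′ external spacer of RNA45SN2 was therefore at 0% in R273H and 100% in wildtype.

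The 28S genes of the other 45S units were covered in both lists. RNA28SN1 (8441146 to 8446211) had all 5066 bases under an R273H peak and all 5066 under a wildtype peak. RNA28SN3 (8396926 to 8401980) had 5004 of 5055 bases under R273H peaks and 5005 under wildtype peaks. The RNA28SN2 difference is thus 1 of 3 near-identical genes in 1 library per genotype, and which copy the reads came from was not tested.

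**Figure D2:**
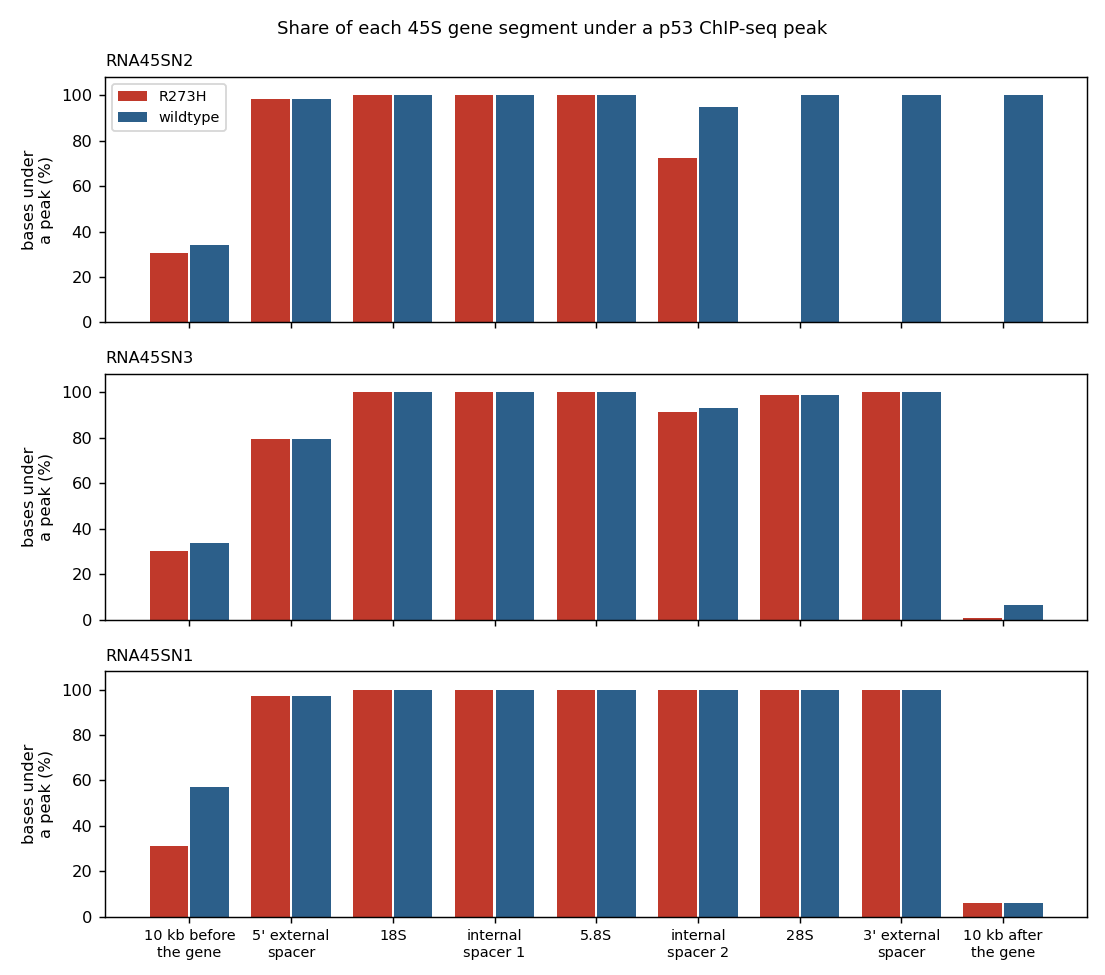
Share of the bases of each segment (y axis, percent from 0) under a peak of the R273H list (red, left bars) and the wildtype list (blue, right bars) for the 3 annotated 45S genes. The 28S gene and 3′ external spacer of RNA45SN2 stand at 0% in R273H and 100% in wildtype, while the 18S and 5.8S genes stand at 100% in every panel.

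Peaks also reached into the spacer before each gene, where the rRNA promoter and the MIR6724 genes lie. "Before" here means towards lower coordinates, since 18S, 5.8S and 28S follow each other with rising coordinate in every unit. The first peak began 3037 bp before RNA45SN2 in R273H (8202951 to 8209227, 6277 bp, score 1488.63) and 3387 bp before it in wildtype (8202601 to 8209224, 6624 bp, score 3100). It began the same 3037 bp before RNA45SN3 in R273H (8385998 to 8391568, 5571 bp, score 1118.97) and the same 3387 bp in wildtype (8385648 to 8391567, 5920 bp, score 3100). At both genes the wildtype peak thus began 350 bp earlier. Before RNA45SN1 the peaks began 3096 bp away in R273H (8430126 to 8435730, 5605 bp, score 1175.74) and 5710 bp away in wildtype (8427512 to 8435731, 8220 bp, score 3100). The wildtype peak there began 2614 bp earlier, as it also did at the pseudogene unit.

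The peak starts therefore paired the units by offset, alike in both lists. RNA45SN2 and RNA45SN3 formed one pair. The pseudogene unit and RNA45SN1 formed the other, with R273H starts 6740 and 6750 bp before the 18S start and wildtype starts 9354 and 9364 bp before it. Measured from the MIR6724 gene beside each unit, R273H peaks began 2364 bp before MIR6724-1 and MIR6724-3, and 2403 and 2404 bp before MIR6724-2 and MIR6724-4. Wildtype peaks began 2714 bp before MIR6724-1 and MIR6724-3, and 5017 and 5018 bp before MIR6724-2 and MIR6724-4. The last pair holds the hairpins printed above that were identical base for base. Hairpins of MIR6724-1 and MIR6724-3 were not among the sequences used here, so they were not compared.

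Past the 3′ end of the genes the covered stretch was short, apart from the wide wildtype peak at RNA45SN2. R273H peaks ended 68 bp past RNA45SN3 and 609 bp past RNA45SN1. Wildtype peaks ended 638 bp past RNA45SN3, including a separate peak of 521 bp (8402461 to 8402981, score 127.93, no R273H partner), and 616 bp past RNA45SN1. Of the 10 kb after RNA45SN2, 0% lay under R273H peaks and 100% under a wildtype peak.

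Most breaks between neighbouring peaks inside the 45S genes lay at the same places in both lists. In RNA45SN1 the break lay in the 5′ external spacer and was 107 bp long in R273H and 106 bp in wildtype, ending at base 8435837 in both. In RNA45SN2 it lay in the same spacer and was 53 bp in R273H and 56 bp in wildtype, ending at base 8209280 in both. RNA45SN3 had a break in the 28S gene of 51 bp in R273H and 50 bp in wildtype, and a break in the second internal spacer of 100 bp in R273H and 79 bp in wildtype. The placement of breaks differed between copies. Within a copy it was nearly the same in both genotypes, apart from the second internal spacer of RNA45SN2, where R273H peaks ended and wildtype peaks went on.

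The widest R273H peak of the region stood on RNA45SN1 and had a close match in wildtype. A single R273H peak (8435838 to 8447181, 11344 bp, score 3100) and a single wildtype peak (8435838 to 8447188, 11351 bp, score 3100) ran from the 5′ external spacer across RNA18SN1, RNA5-8SN1 and RNA28SN1. They shared their first base and ended 7 bp apart. The R273H peak was the third in its list by width, and 3 R273H peaks, itself included, tied at its score. The wildtype peak was the second by width, and 22 wildtype peaks tied at its score. At RNA45SN3 the same stretch was divided into 3 peaks in each list, from 1544 to 4386 bp wide with scores of 589.42 to 998.16 in R273H, and from 1565 to 4434 bp with scores of 1886.03 to 3100 in wildtype.

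The pseudogene unit carried wide, high-scoring peaks too. It consists of RNA18SP5 (8253842 to 8255704), RNA5-8SP10 (8256780 to 8256936) and the 28S pseudogene LOC110467529 (8258134 to 8260930), which at 2797 bases is shorter than the 28S genes. RNA18SP5 was covered in full in both lists, LOC110467529 over 2797 bases in R273H and over 2752 bases in wildtype. R273H peaks stood at 8247102 to 8252203 (score 873.28), 8252810 to 8257713 (816.92) and 8257738 to 8260971 (2247.92, the seventh highest of that list). Wildtype peaks stood at 8244488 to 8252277 (score 2516.24), 8252810 to 8258562 (3100) and 8258608 to 8260971 (3100), with a small one at 8252292 to 8252600 (65.89, no R273H partner). The last peaks ended at the same base in both lists, 41 bp past the pseudogene. Peaks broke at different places near the 28S pseudogene, for 24 bp beginning 420 bp before the start of LOC110467529 in R273H and for 45 bp beginning 429 bp after it in wildtype.

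A peak far from the units had the same first and last base in both lists. It lay at 8986609 to 8988733 (2125 bp), 540037 bp past RNA45SN1, with a score of 1025.39 in R273H and 3100 in wildtype. It covers MIR3648-2 (8986999 to 8987178) and MIR10396A. Their counterparts MIR3648-1 and MIR10396B lie in the 5′ external spacers of RNA45SN2 and RNA45SN1, 2485 and 3102 bp after the gene start. Among 435 overlapping pairs elsewhere in the genome, 1 also had both edges in common.

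A larger share of edges lay within 10 bp of each other in this region than elsewhere, and a like share within 100 bp. The 12 R273H and 12 wildtype peaks with a partner made 13 overlapping pairs. Of their 26 edges, 7 (26.9%) lay at the same base and 15 (57.7%) within 10 bp. Of 870 edges of the pairs elsewhere, 26 (2.99%) lay at the same base and 123 (14.1%) within 10 bp. Within 100 bp the shares were 69.2% here and 67.8% elsewhere. The median width ratio of wildtype over R273H peak was 1.01 here and 1.28 elsewhere. The wildtype peak was the wider in 11 of 13 pairs here and in 338 of 435 pairs elsewhere. Peaks of the region were wide, with a median of 4340 bp in R273H and 4360 bp in wildtype, against 372 and 321 bp elsewhere. A shift of the same length changes the ratio less in wide peaks, so nothing is read from the difference in ratio. The shares of edges are a description, since overlap was among the values that chose the region and neighbouring pairs share units.

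**Figure D3:**
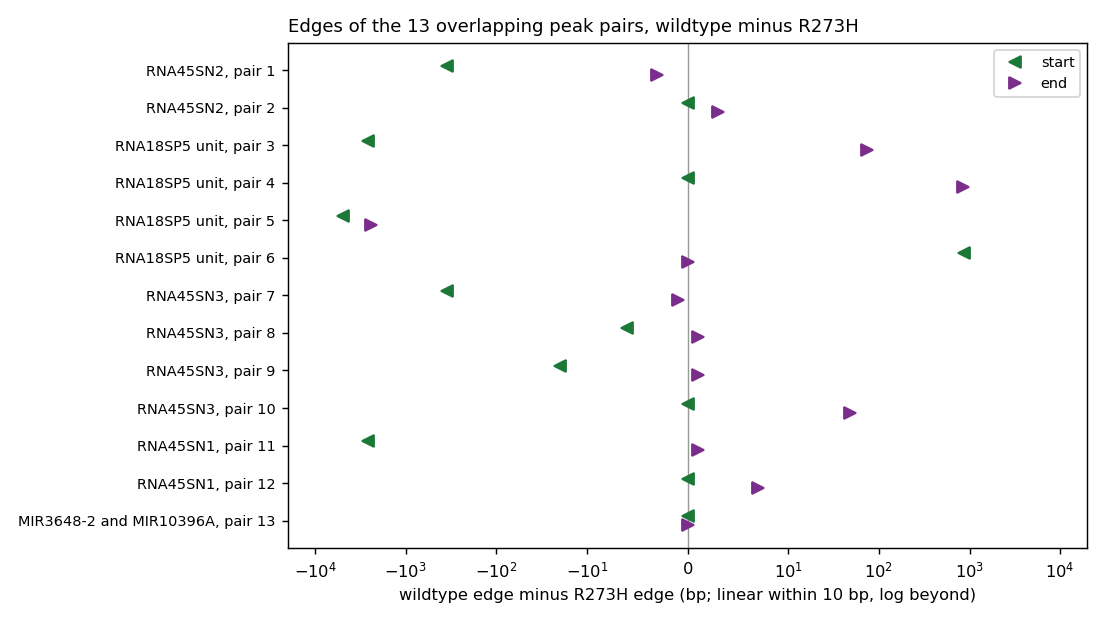
Differences between the edges of the 13 overlapping pairs, wildtype minus R273H in bp (x axis, linear within 10 bp and log beyond), for starts (green) and ends (purple), 1 row per pair. Starts at 0 occur in 5 pairs and ends at 0 in 2, and starts lie 350 bp earlier in wildtype at RNA45SN2 and RNA45SN3 and 2614 bp earlier at the pseudogene unit and RNA45SN1.

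Most peaks of the region had a partner in the other list, meaning a peak that overlaps by at least 1 bp. Of the R273H peaks 12 of 14 had one, 85.7% (95% exact binomial interval 57.2 to 98.2), and in the whole list 21.9% did. Of the wildtype peaks 12 of 16 had one, 75.0% (47.6 to 92.7), and in the whole list 21.2% did. The intervals cover counting error only, and neighbouring peaks are not independent. Since overlap was known when the region was chosen, nothing is read from these shares. The R273H peaks without a partner stood at 8006350 to 8008091 (1742 bp, score 54.68) and 8599485 to 8599724 (240 bp, score 74.5), 197897 and 152913 bp from the nearest 45S gene and on no annotated gene. The wildtype peaks without a partner were the wide peak at RNA28SN2, the small ones beside the pseudogene unit and RNA45SN3, and one at 8843636 to 8844366 (731 bp, score 53.38). Counted in bases, 96.6% of the 60375 bases under R273H peaks also lay under wildtype peaks, and 69.3% of the 84243 bases under wildtype peaks also lay under R273H peaks.

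The high-scoring peaks of the region were wide in each list, and their width and score were known when the region was chosen. Among peaks scoring at least 500, the 12 of the region in the R273H list were 1544 to 11344 bp wide (median 4645), and the 67 elsewhere were 425 to 1203 bp (median 657). In the wildtype list the 13 of the region were 1565 to 18225 bp wide (median 5753), and the 189 elsewhere were 122 to 1808 bp (median 633). Above 2000 bp there were 11 R273H and 12 wildtype peaks in the region at this score and 0 elsewhere in either list. Wide peaks elsewhere existed but scored lower, with 217 R273H and 101 wildtype peaks of at least 2000 bp. The region held 3.44% of all bases under R273H peaks and 6.63% of all bases under wildtype peaks. The score limit was set after the values were seen, and width and score chose the region, so nothing is read from this contrast. By width alone, 1 of the 20 widest R273H peaks lay in the region and 19 elsewhere. In wildtype 7 of the 20 widest lay in the region and 13 elsewhere.

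**Figure D4:**
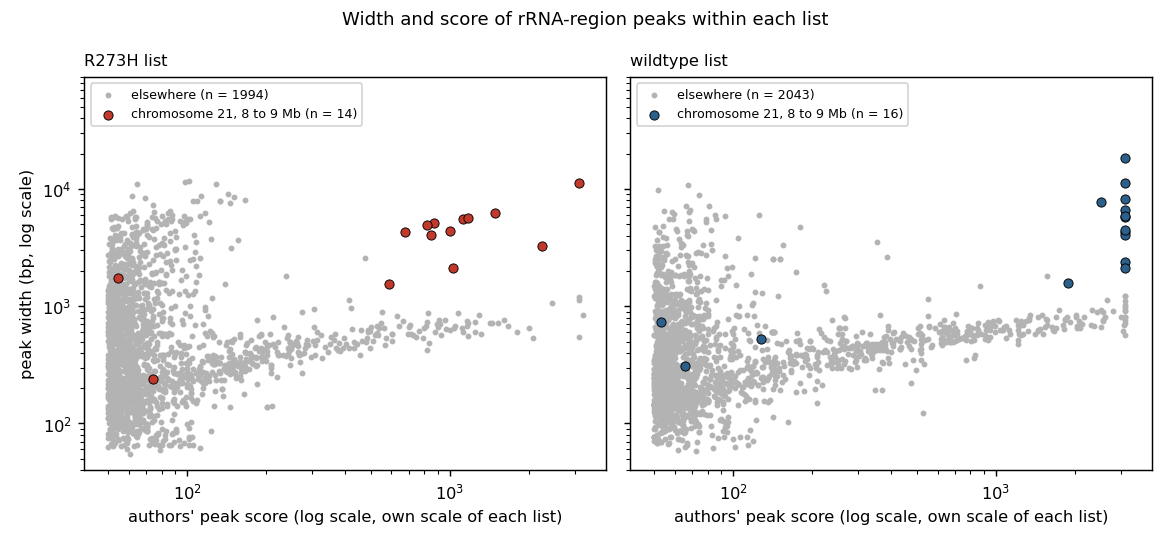
Peak width in bp (y axis, log scale) against the authors' score (x axis, log scale, on each list's own scale) for the R273H list (left) and the wildtype list (right), with peaks of chromosome 21 between 8 and 9 Mb in colour and all others in grey. At scores of at least 500 the coloured peaks reach 11344 bp in R273H and 18225 bp in wildtype, while grey peaks reach 1203 bp in R273H and 1808 bp in wildtype.

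Of the annotated genes of the region, those of rRNA and the microRNAs lay under peaks. All 15 rRNA genes and pseudogenes between 8 and 9 Mb but RNA28SN2 lay at least partly under an R273H peak, and all 15 lay under a wildtype peak. Of the other genes of the region, the 8 microRNA genes were covered in both lists. Most of them lay under a peak that also touched a 45S gene, and MIR3648-2 and MIR10396A shared 1 peak of each list. None of 5 lncRNA genes and 9 pseudogenes unrelated to rRNA had a peak inside in either list. Over all annotated genes, 1.21% had an R273H peak inside and 1.84% a wildtype peak, so 0 of these few genes is near the background. The nearest peaks outside the limits scored near the whole-list medians, 61.9 in R273H and 64.9 in wildtype. Not all of them lay close to the limits. The nearest R273H peaks lay at 7990306 to 7992998 (score 69.33) and 9117993 to 9118381 (57.74), and the nearest wildtype peaks at 7657383 to 7657814 (56.89) and 9633968 to 9634160 (62.06), all without a partner. Inside the limits, the first R273H peak scored 54.68 and the first wildtype peak 3100, and the last peak was the shared one at 8986609.

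Pseudogenes of rRNA on other chromosomes had no peak inside, but some had one nearby. Of 23 pseudogenes of 18S, 28S or 5.8S rRNA annotated elsewhere, none had a peak of either genotype inside (0 in R273H and 0 in wildtype). Peaks lay inside or within 10 kb of 4 of them (17.4%) in R273H and 5 (21.7%) in wildtype, shares above the 2.3% of all genes in R273H and 3.42% in wildtype. Some of these pseudogenes neighbour each other and share a peak, so they are not independent. The scores of these peaks were 50.05 to 72.31 in R273H and 51.23 to 116.25 in wildtype. Near the pseudogenes LOC110467533 and RNA5-8SP5 on chromosome 2, a peak of each genotype overlapped MIR663B, at 132256955 to 132257027 in R273H (score 59.7) and 132256952 to 132257097 in wildtype (91.6). This list of pseudogenes was drawn up after the peaks had been seen.

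The 5S rRNA genes, which RNA polymerase III transcribes from an array on chromosome 1, mostly carried wildtype peaks. None of the 17 genes RNA5S1 to RNA5S17 (228610266 to 228646158) had an R273H peak inside or within 10 kb, and the nearest R273H peak was 3185338 bp away. A count of 0 of 17 is little different from the 1.21% of all genes with an R273H peak inside, so nothing is read from it. In the wildtype list 15 of the 17 (88.2%) had a peak inside, as did 1.84% of all genes, and RNA5S12 and RNA5S15 had none inside but neighbours within 10 kb. All 15 wildtype peaks began 82 bp before the start coordinate of the 5S gene, and 9 of them were 818 bp wide. Their scores ranged from 51.21 to 105.46 (median 71.8), with ranks from 546 to 1912 of 2059, and the median of the whole wildtype list was 64.9. The highest were at RNA5S8 (105.46), RNA5S1 (104.19) and RNA5S17 (102.27), and the lowest at RNA5S16 (51.21) and RNA5S5 (51.28). The 5S genes stand 2215 to 2242 bp apart and are near-identical too, so the 15 peaks are not 15 independent sites. The lowest score listed was 50.02 in R273H and 50.01 in wildtype, and with 1 library per genotype these peaks have no replicate check.

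**Figure D5:**
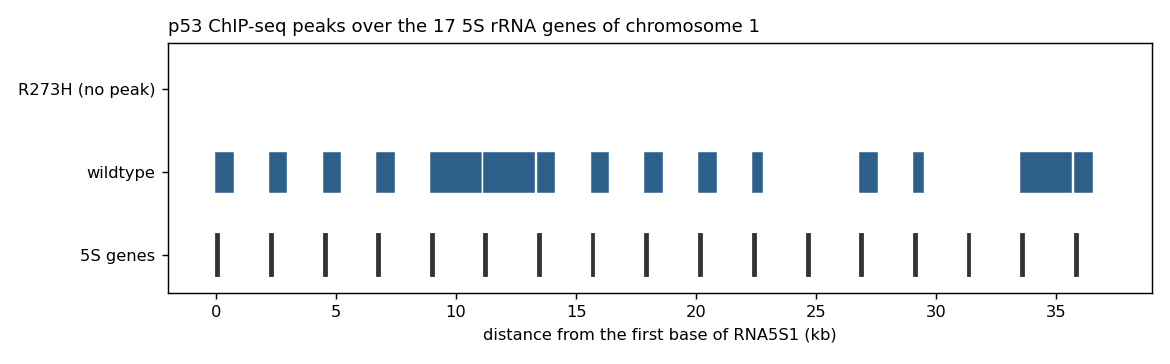
Wildtype peaks (blue) over the 17 5S rRNA genes of chromosome 1 (black ticks), with the distance from the first base of RNA5S1 in kb on the x axis and white lines between peaks. Peaks start 82 bp before the start coordinate of 15 of the 17 genes, and the R273H row is empty.

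Genes for the proteins that make and process rRNA had few peaks, as did annotated genes as a whole. A gene was counted when a peak lay inside it or within 10 kb, which held for 2.3% of all annotated genes in R273H and 3.42% in wildtype. None of 13 genes of RNA polymerase I subunits, 9 of its initiation and termination factors, 27 of rRNA processing and modification and 13 of rDNA silencing had a peak in either list. Among 13 genes of the pathway from nucleolar stress to p53, R273H peaks were found at 1 and wildtype peaks at 2. RPS27L, which encodes a ribosomal protein paralogue induced by p53, had a peak over its upper-coordinate end in both lists, at 63156940 to 63157604 on chromosome 15 in R273H (score 502.72) and at 63156882 to 63157689 in wildtype (1698.39). MDM4, which encodes a p53 inhibitor, had a wildtype peak alone (chromosome 1, 204552285 to 204552584, score 55.24). RPL5, RPL11 and MDM2 had none in either list. Over all lists without the 5S genes, R273H peaks were found at 1 of 73 genes (1.37%) and wildtype peaks at 2 (2.74%), shares near those of all genes.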

How the data were processed

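The deposited files were 2 lists of p53 ChIP-seq peaks, 1 for p53-R273H and 1 for the wildtype control, each giving for every peak its coordinates, a name and a score set by the authors. The submitters' processing notes list the build hg38 and the tools HOMER, MACS and Bowtie 1.2.2, with no role for any. The peak threshold, the use of the input, pooling, the handling of reads with several matches and the scale of the score were not given in the sources used here. Lists were matched to ChIP samples by their titles. The sample descriptions assign them otherwise, naming the R273H list for both ChIP samples and the wildtype list for both inputs. Peak numbers below 193 in the R273H list and below 228 in the wildtype list were not analysed here.

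Starts were converted to count from 1. Genes came from a RefSeq table of GRCh38.p14 (58961 genes on assembled chromosomes), which gives neither strand nor exons. Spacers were taken as the stretches between annotated rRNA genes. Overlaps and covered bases were counted in Python 3.11.15 with pandas 2.3.3, and intervals are exact (Clopper-Pearson, SciPy 1.17.1). Overlap counting was tested on simulated data. No p-value was computed, since each genotype had 1 ChIP library. All 90 symbols of 6 gene lists matched the table. Members, lists and limits were chosen with earlier results of these data known. The rule for naming took every peak of the region, every rRNA gene there and every list gene with a peak. A planned search of 45S promoters for the p53 motif was not run, as no promoter sequence of these genes was used here.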

Additional observations from a re-analysis of the deposited data

How the results depend on the processing

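Of 28 alternatives over 8 results, 23 stayed within the limits set, which were 1.5 times the count for counts and the 95% binomial interval for shares. For shares of bases that interval takes neighbouring bases as independent. It is therefore too narrow, and little is read from a share that left it. The share of the 3 45S genes under peaks depended on what was measured. With the mature 18S, 5.8S and 28S genes only it was 76.0% in R273H and 99.8% in wildtype, while for whole genes it was 83.0% in R273H and 97.3% in wildtype. With 10 kb on each side it was 43.0% in R273H and 62.6% in wildtype. The wildtype list covered more in each case. Within the 3 genes this came almost wholly from RNA45SN2, which held 5680 of the 5709 bases under wildtype peaks alone. With midpoints within 200 bp in place of an overlap, 8 R273H and 8 wildtype peaks had a partner. Among all peaks of chromosome 21 below 11 Mb, 13 of 26 R273H and 13 of 27 wildtype peaks had one. Those shares were lower than the 12 of 14 and 12 of 16 of the region. The limit for partners compared counts and not shares, so this alternative still stayed within it. R273H peaks with their midpoint inside a 45S gene numbered 6, against 8 touching one. Wildtype peaks with their midpoint inside a 45S gene numbered 5, against 9 touching one. No paired analysis was possible because each genotype had 1 ChIP library, and for the same reason none could be left out. Read depth is unknown, so no weak or missing peak can be told from low coverage.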
